A study of Mus musculus with 2 samples.

Results

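The 10 genes of mineralized bone matrix and osteocytes described here (Spp1, Ibsp, Dmp1, Mepe, Phex, Alpl, Bglap, Bglap2, Ifitm5 and Sost) were followed through RNA sequencing of nestin-GFP+ bone marrow stromal cells. Each was taken from the deposited table by its symbol, so the set holds 10 of 35798 rows, and they are among 19928 protein-coding genes that have their own row. The table gives FPKM (fragments divided by transcript length and by mapped depth), so that levels of different genes within a library can be set beside each other. The JAK2 V617F library came from adult C57BL/6 mice carrying Nes-gfp, Mx1-cre and JAK2-V617F, a mutant kinase that drives myeloproliferative neoplasms. The control library came from littermates with Nes-gfp alone, and the labels name neither Cre nor JAK2-V617F for them. Both groups received pIpC, the interferon inducer that turns on Mx1-cre, and the cells were taken 6 weeks later. In both, bone marrow cells were sorted as GFP+ and as lacking CD45, CD31 and Ter119, the surface markers of leukocytes, endothelium and red cells. Mx1-cre is active in blood cells and is known to recombine in some marrow stromal progenitors as well. Each library pooled 3 animals, so there was 1 library per genotype, no replicate error and no test between genotypes, and effects of Cre and of the mutation cannot be told apart. The question behind the comparison is how the mesenchymal niche cell differs in mice with the neoplasm.

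Osteoblasts lay down a matrix of type I collagen and fill it with acidic, calcium-binding proteins on which hydroxyapatite crystals grow, and some of them become osteocytes buried in that matrix. Spp1, Ibsp, Dmp1 and Mepe belong to the SIBLING family, secreted phosphoproteins that bind integrins or mineral and are encoded side by side. Alkaline phosphatase, encoded by Alpl, removes the mineral inhibitor pyrophosphate early in the lineage, whereas osteocalcin, encoded by Bglap and Bglap2, and the SIBLING gene Dmp1 mark later osteoblasts and osteocytes. In bulk RNA from sorted cells, fewer cells of a type and less RNA per cell cannot be told apart.

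The start regions of the 3 genes that differed most and of Spp1, the most abundant, are shown because factors such as RUNX2 act on regions of this kind in bone genes. Each run gives the 250 bases before the RefSeq start site (GRCm38.p6), read in the direction of the gene. Capitals mark ACCACA, the core letters bound by RUNX factors, and a pair of AT-rich hexamers that often lie near start sites, TTTAAA and the TATA box letters TATAAA, each searched on both strands.
Dmp1 (chr5:104202367-104202616, plus strand): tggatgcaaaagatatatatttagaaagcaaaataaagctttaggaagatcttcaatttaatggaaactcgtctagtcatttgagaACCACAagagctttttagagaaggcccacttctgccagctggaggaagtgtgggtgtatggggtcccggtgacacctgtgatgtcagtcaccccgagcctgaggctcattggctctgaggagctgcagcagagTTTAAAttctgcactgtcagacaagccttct
Bglap (chr3:88384467-88384716, minus strand): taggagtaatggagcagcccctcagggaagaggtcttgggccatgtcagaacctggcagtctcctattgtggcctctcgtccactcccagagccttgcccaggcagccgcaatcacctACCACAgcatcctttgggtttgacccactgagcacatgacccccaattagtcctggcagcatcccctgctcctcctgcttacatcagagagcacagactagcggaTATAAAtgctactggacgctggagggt
Ifitm5 (chr7:140950244-140950493, minus strand): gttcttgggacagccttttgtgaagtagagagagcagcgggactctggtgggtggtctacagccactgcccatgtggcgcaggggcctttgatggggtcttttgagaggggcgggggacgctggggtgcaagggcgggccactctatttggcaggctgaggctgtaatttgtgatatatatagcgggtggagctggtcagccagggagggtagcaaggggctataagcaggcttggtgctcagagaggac
Spp1 (chr5:104434861-104435110, plus strand): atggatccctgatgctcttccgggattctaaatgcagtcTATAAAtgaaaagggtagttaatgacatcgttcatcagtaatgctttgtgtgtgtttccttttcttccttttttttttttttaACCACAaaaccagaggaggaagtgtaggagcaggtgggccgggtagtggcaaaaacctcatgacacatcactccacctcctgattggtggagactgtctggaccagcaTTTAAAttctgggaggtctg
Of the 10 genes, 9 had an entry in the RefSeq table, and the entry whose start lay nearest the deposited locus was used. Bglap2 was the gene with none. The RUNX letters stood in 4 of the 9 (Dmp1, Bglap, Spp1 and Mepe), and in 14.0% of all 32851 entries over the same length. TTTAAA stood in 4 of 9 (Dmp1, Spp1, Phex and Sost), against 12.1% of all entries, and TATAAA on either strand in 4 of 9 (Bglap, Ibsp, Spp1 and Mepe), against 12.4%. In Dmp1 the RUNX letters began 164 bases before the start and TTTAAA 31 bases before it. In Bglap they began 132 bases before the start, and TATAAA lay 27 bases before it. Spp1 had them 128 bases before the start, with TTTAAA at 20 bases. None of the 3 motifs was in the Ifitm5 window. No 2 of the marked matches overlapped. The motifs were picked after the sequences had been seen, and a match describes letters, not binding.

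Most of the bone mineral genes were lower in the JAK2 V617F library, and by unequal amounts. Of the 10, 9 reached 1 FPKM, and each of these did so in both libraries, with a lowest value of 9.12 FPKM. On log2(FPKM + 1), a scale that shrinks the differences of weakly expressed genes, 3 of the 9 differed by 2-fold or more, all lower in the JAK2 V617F library: Dmp1, Bglap and Ifitm5. Of all 12439 protein-coding genes that reached 1 FPKM in either library, 8.67% were lower by as much, and of the 7560 that reached 10 FPKM, 7.21% were. None of the 9 was higher by 2-fold, against 10% of all genes and 4.97% of those that reached 10 FPKM. The median log2 ratio was -0.89 over the 9 genes, -0.04 over all genes and -0.11 over those that reached 10 FPKM, as all 9 did. Below 0 lay 8 of the 9, against 52.5% of all genes and 58.4% of those that reached 10 FPKM. Together the 10 genes held 0.39% of the FPKM summed over protein-coding rows in the JAK2 V617F library and 0.728% in the control library.

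**Figure D1:**
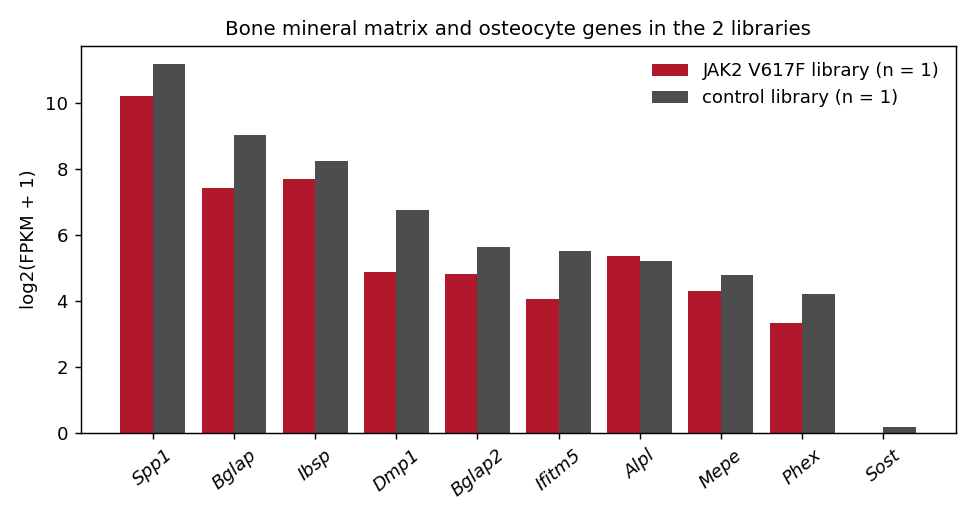
Level of each of the 10 genes as log2(FPKM + 1) in the JAK2 V617F library (red, left) and the control library (grey, right), 1 library each and so without error bars, in the order of the control levels. Alpl has the taller red bar, Sost is at 0 or close to it in both, and the other 8 genes have the taller grey bar.

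The SIBLING genes spanned log2 ratios of -1.89 to -0.50. Spp1, which encodes osteopontin, a phosphoprotein that binds integrins and restrains crystal growth and is also made by macrophages and hypertrophic chondrocytes, was at 1201 FPKM in the JAK2 V617F library and 2311 FPKM in the control library (log2 ratio -0.94). It was the most abundant of the 10 genes in both, ranking 25 among protein-coding genes in the JAK2 V617F library and 5 in the control library. Spp1 alone made up 69.9% and 67.7% of the summed FPKM of the 10 genes in the JAK2 V617F and the control library. Without it the other 9 genes summed to 518 FPKM in the JAK2 V617F library and 1105 FPKM in the control library, so the sum was lower with and without Spp1.

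Dmp1, dentin matrix protein 1, which osteocytes need for mineralization and for holding FGF23 low, stood at 28.3 FPKM in the JAK2 V617F library and 108 FPKM in the control library. That was 3.8-fold lower (log2 ratio -1.89), the largest difference of the 10, and 1.46% of all protein-coding genes had a lower ratio. From about 450 and 1469 estimated fragments, the plain ratio was 0.263, and its exact (Clopper-Pearson) 95% interval from counting error ran over 0.236 to 0.293. Ibsp, bone sialoprotein, a nucleator of hydroxyapatite and an early product of mineralizing osteoblasts, was at 207 FPKM in the JAK2 V617F library and 303 FPKM in the control library. With about 2416 and 3033 fragments its interval was 0.649 to 0.722, which does not reach that of Dmp1. Ibsp was accordingly 7.32 times as abundant as Dmp1 in the JAK2 V617F library and 2.81 times in the control library. These intervals cover counting error only, not the spread between animals, and rest on an estimated depth.

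Mepe, the matrix extracellular phosphoglycoprotein of osteocytes, whose acidic peptide inhibits mineralization, was at 18.8 FPKM in the JAK2 V617F library and 26.9 FPKM in the control library (log2 ratio -0.50). Its interval, 0.57 to 0.858 from about 175 and 215 fragments, overlapped that of Ibsp, and the ratio of Ibsp to Mepe was 11.1 and 11.3 in the JAK2 V617F and the control library. Dmp1 and Mepe are both osteocyte-enriched, yet their intervals were far apart. Phex, a membrane endopeptidase that cleaves such acidic peptides and whose loss causes X-linked hypophosphataemia, was at 9.12 FPKM in the JAK2 V617F library and 17.8 FPKM in the control library (log2 ratio -0.89). It was the lowest of the 9 detected genes in both.

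The 4 SIBLING genes of the set span 238 kb of mouse chromosome 5 (GRCm38), where the gene order is Dmp1, Ibsp, Mepe and Spp1. Dspp, the dentin member, which precedes Dmp1, was below 1 FPKM in both, at 0.0337 FPKM in the JAK2 V617F library and listed at 0 in the control library. The flanking Sparcl1, a matricellular gene, was at 27.6 FPKM in the JAK2 V617F library and 20.0 FPKM in the control library (log2 ratio 0.44). On the other side Pkd2, the polycystin 2 channel, was at 12.7 FPKM in the JAK2 V617F library and 18.8 FPKM in the control library (log2 ratio -0.53). The log2 ratios of Ibsp (-0.54) and Mepe (-0.50) were thus close to that of the unrelated neighbour Pkd2, and Dmp1 was beyond all of them.

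**Figure D2:**
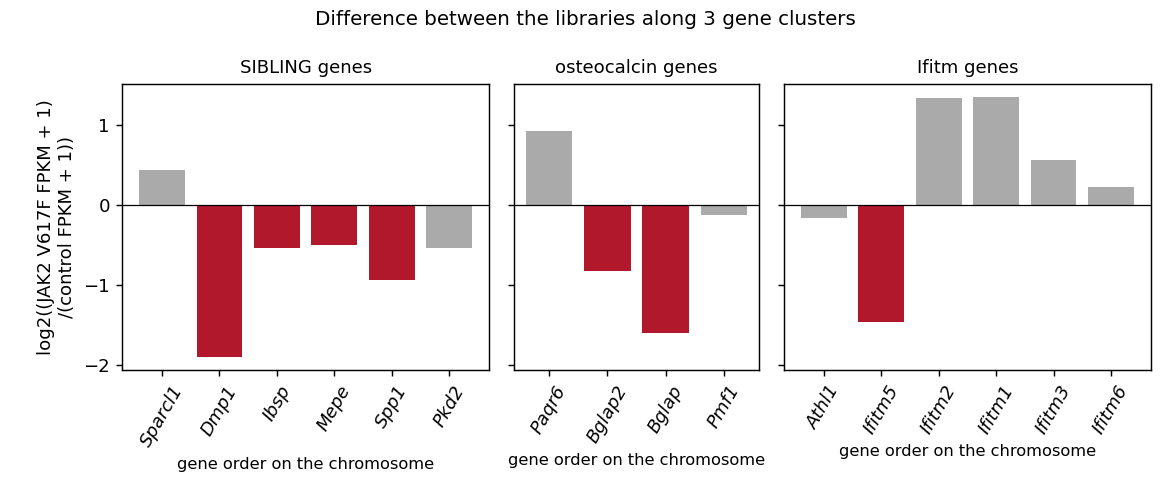
Log2 ratio of the JAK2 V617F over the control library (vertical axis, 1 library per genotype) for genes that reached 1 FPKM in either library, in their order along the SIBLING, osteocalcin and Ifitm clusters, with the bone mineral genes in red and their neighbours in grey. Dmp1, Bglap and Ifitm5 are the longest bars downwards, and Ifitm1 and Ifitm2, next to Ifitm5, point upwards at 1.35 and 1.33.

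Osteocalcin, the vitamin K-dependent protein of mature osteoblasts, had the largest absolute difference after Spp1. Bglap (chromosome 3, 88383501 to 88384464) was at 171 FPKM in the JAK2 V617F library and 519 FPKM in the control library, 3.04-fold lower (log2 ratio -1.60), and 2.59% of all genes had a lower ratio. Bglap2 (88377736 to 88378699) was at 27.5 FPKM in the JAK2 V617F library and 49.2 FPKM in the control library (log2 ratio -0.82), with an interval of 0.394 to 0.808 from about 54 and 82 fragments. Bglap was 6.21 times as abundant as Bglap2 in the JAK2 V617F library and 10.5 times in the control library. The annotated protein-coding transcripts of these neighbours were 98.6% identical over 440 aligned bases, with a longest identical run of 241 bases. How the authors' software divided reads between them is not given in the sources used here, so the split is uncertain and their sum is the safer value. Summed, they were at 198 FPKM in the JAK2 V617F library and 568 FPKM in the control library. The gene on the far side of Bglap, Pmf1, a kinetochore component, was at 51.2 FPKM in the JAK2 V617F library and 55.9 FPKM in the control library.

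Ifitm5 differed from its own gene family. It encodes a membrane protein of osteoblasts, also called BRIL, whose human mutations cause brittle bone disease. It was at 15.8 FPKM in the JAK2 V617F library and 45.3 FPKM in the control library, 2.86-fold lower, with an interval of 0.254 to 0.476 from about 59 and 145 fragments. The neighbouring Ifitm genes on chromosome 7 encode antiviral proteins that interferon induces in many cell types, and they lay on the other side of 0. Ifitm2 was at 254 FPKM in the JAK2 V617F library and 100.1 FPKM in the control library, a log2 ratio of 1.33, and the counting interval of the plain ratio was 2.2 to 2.93. Ifitm1 was at 25.0 FPKM in the JAK2 V617F library and 9.22 FPKM in the control library (log2 ratio 1.35). Ifitm3 was at 247 FPKM in the JAK2 V617F library and 167 FPKM in the control library (log2 ratio 0.56), and Ifitm6 at 8.58 and 7.22 FPKM (log2 ratio 0.22).

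Alpl was the one detected gene above 0. Tissue-nonspecific alkaline phosphatase was at 40.4 FPKM in the JAK2 V617F library and 36.2 FPKM in the control library (log2 ratio 0.16), inside the bulk of all genes, 62.4% of which had a lower ratio. The enzyme is made by early osteoblasts and by other cells, including neutrophils. Relative to Bglap, Alpl was at 0.237 in the JAK2 V617F library and 0.0697 in the control library. Its position among the 10 genes was the fourth in the JAK2 V617F library and the seventh in the control library, whereas Dmp1 was the fifth and the fourth and Ifitm5 the eighth and the sixth.

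Sost, which encodes sclerostin, the Wnt inhibitor of mature osteocytes, had a listed value of 0 in the JAK2 V617F library and was at 0.134 FPKM in the control library, about 1 estimated fragment. The level that 3 fragments would give was 0.258 FPKM in the JAK2 V617F library and 0.3 FPKM in the control library, so Sost was not detectable at this depth in either. Fgf23, the phosphate-regulating hormone of osteocytes, and Pdpn, which marks young osteocytes, were listed at 0 in both libraries. The osteocyte side of the set was thus represented by Dmp1, Phex and Mepe, with the mature osteocyte markers Sost and Fgf23 at or near 0. An exact 0 in such a table can also be a failed estimate.

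**Figure D3:**
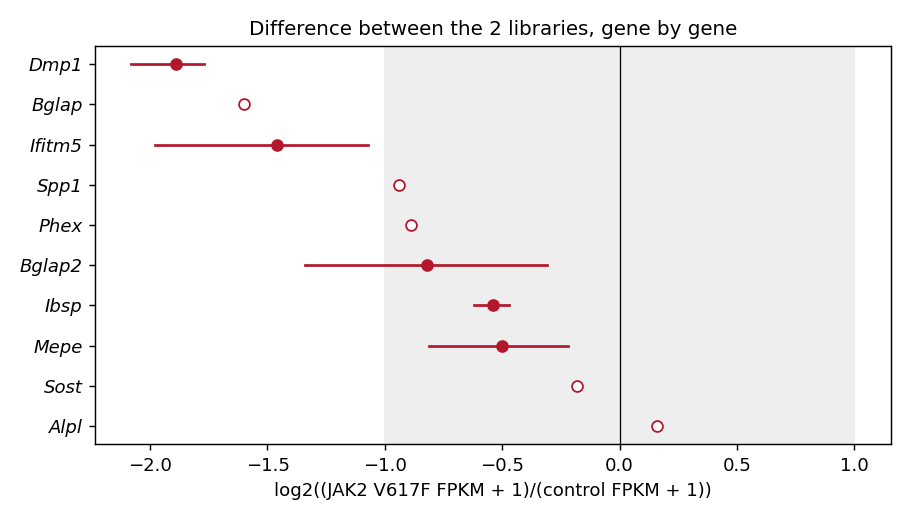
Log2 ratio of the JAK2 V617F over the control library for each gene, sorted, with the zone within 2-fold shaded. Filled points have a bar for the 95% exact counting interval of the plain FPKM ratio (single-transcript genes only, no replicate error), and open points have none. The intervals of Dmp1 and Ifitm5 lie outside the shaded zone, and those of Ibsp and Mepe lie inside it.

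**Figure D4:**
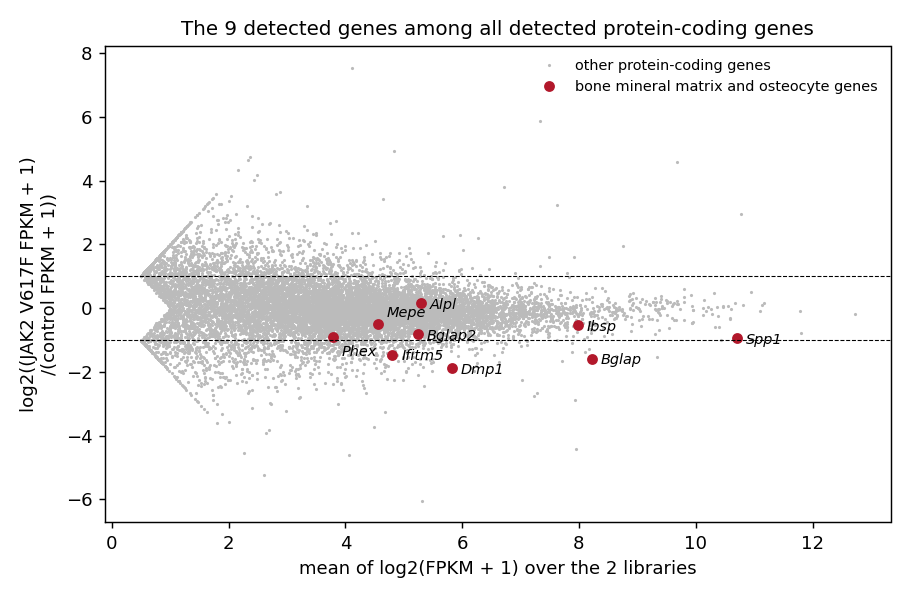
Every protein-coding gene that reached 1 FPKM in either library (grey, n = 12439 with the red points), by its mean log2(FPKM + 1) over both libraries and its log2 ratio of the JAK2 V617F over the control library. Dashed lines mark 2-fold. Dmp1 (-1.89), Bglap (-1.60) and Ifitm5 (-1.46) lie below the lower line, and Alpl (0.16) lies within the main cloud.

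Set against type I collagen, Dmp1, Bglap and Ifitm5 were lower in the JAK2 V617F library, and Spp1 and Phex were close to equal. Ibsp, Mepe and Alpl were higher, and Bglap2 was only slightly so. Col1a1, the main collagen chain of bone, was at 1436 FPKM in the JAK2 V617F library and 2784 FPKM in the control library (log2 ratio -0.95). Expressed as a percent of Col1a1, Spp1 was at 83.6% in the JAK2 V617F library and 83.0% in the control library, and Phex at 0.635% and 0.639%. Dmp1 was at 1.97% of Col1a1 in the JAK2 V617F library and 3.87% in the control library, Bglap at 11.9% and 18.6%, and Ifitm5 at 1.1% and 1.63%. Ibsp was higher on this scale, at 14.4% of Col1a1 in the JAK2 V617F library and 10.9% in the control library, as were Mepe (1.31% and 0.967%), Bglap2 (1.91% and 1.77%) and Alpl (2.81% and 1.3%). The values of Bglap and Bglap2 here carry the uncertain split between the 2 copies. On the log2 scale the counting interval of Bglap2, -1.34 to -0.31, contained the log2 ratio of Col1a1, so Bglap2 was not told apart from equal. A further scaling, chosen after seeing the data, brought both libraries to the same level of Col1a1 and Col1a2. On it none of the 9 genes was 2-fold lower and Alpl was 2-fold higher (log2 ratio 1.11). The median was 0.03 for the 9 genes and 0.87 for all genes, 2.9% of which were 2-fold lower. Under the 4 scalings that did not use collagen, Dmp1, Bglap and Ifitm5 stayed past 2-fold. Of all protein-coding genes, 5.68% to 7.48% were lower by as much on these 4 scales. On the scale of the mesenchymal stroma markers, which multiplied JAK2 V617F values by 1.24, the median log2 ratio was -0.61 for the 9 genes and 0.25 for all genes. That multiplier came from the summed FPKM of the markers, so it rested mostly on Cxcl12. Cxcl12 held 694 of 982 FPKM in the JAK2 V617F library and 891 of 1219 FPKM in the control library.

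**Figure D5:**
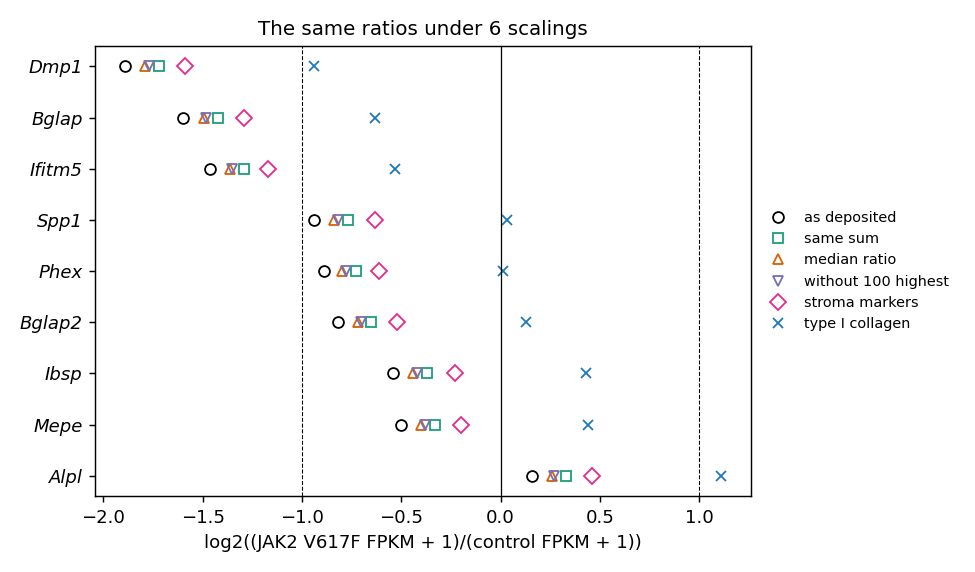
Log2 ratio of the JAK2 V617F over the control library for the 9 detected genes as deposited and under 5 rescalings (symbols), with dashed lines at 2-fold. Dmp1, Bglap and Ifitm5 lie beyond the left line under every scaling but that to type I collagen, under which the genes spread on both sides of 0.

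Genes that work beside these 10 were taken from 5 lists, read against the same 8.67% lower and 10% higher of all genes. In the bone matrix list, 14 of 15 genes reached 1 FPKM, 1 was at least 2-fold lower and 1 higher, and the median log2 ratio was -0.60. Sparc, osteonectin, the most abundant, was at 2724 FPKM in the JAK2 V617F library and 4686 FPKM in the control library. Serpinf1, a secreted factor of osteoblasts whose human loss causes brittle bones, was at 234 FPKM in the JAK2 V617F library and 672 FPKM in the control library (log2 ratio -1.51). Chad, a cartilage and bone matrix protein, was higher, at 313 FPKM in the JAK2 V617F library and 102 FPKM in the control library (log2 ratio 1.61). Mgp, the mineralization inhibitor of cartilage and vessels, was at 320 FPKM in the JAK2 V617F library and 161.9 FPKM in the control library (log2 ratio 0.98), and passed 2-fold under the 4 scalings that did not use collagen.

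The mineralization machinery had no gene past 2-fold among the 10 detected of 11 with a row of their own (median log2 ratio -0.43). Its most abundant member, the pyrophosphate exporter Ank, was at 69.1 FPKM in the JAK2 V617F library and 92.5 FPKM in the control library. The phosphate transporter Slc20a1 was at 64.9 FPKM in the JAK2 V617F library and 78.4 FPKM in the control library. Fam20c, the kinase that phosphorylates SIBLING proteins, was at 11.2 FPKM in the JAK2 V617F library and 21.5 FPKM in the control library (log2 ratio -0.88).

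In the osteocyte list, 12 of 14 genes were detected, 1 was 2-fold lower, 1 higher, and the median was -0.43. Gja1, the main gap junction protein of osteocytes, was at 30.4 FPKM in the JAK2 V617F library and 57.0 FPKM in the control library, and the actin-capping gene Capg at 17.2 FPKM in the JAK2 V617F library and 19.7 FPKM in the control library. The potassium channel gene Kcnk2 was 2-fold lower, at 0.645 FPKM in the JAK2 V617F library and 2.41 FPKM in the control library, a call lost with a pseudocount of 5, at the same sum and on stroma markers. Wnt1, a bone-forming ligand that blood cells can also make, was at 4.57 FPKM in the JAK2 V617F library, about 62 estimated fragments, and was listed at 0 in the control library. Its log2 ratio of 2.48 depends on the pseudocount and was 0.94 with a pseudocount of 5, short of 2-fold, whereas it was 2.56 to 2.74 under the 4 scalings that did not use collagen.

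The osteoblast transcription factors were lower as well. Of 9 listed, 8 were detected, 4 were at least 2-fold lower, none higher, and the median was -0.98. Vdr, the vitamin D receptor, was at 15.4 FPKM in the JAK2 V617F library and 64.5 FPKM in the control library (log2 ratio -1.99). Dlx3, a homeobox factor of late osteoblasts, was at 4.70 FPKM in the JAK2 V617F library and 20.5 FPKM in the control library (log2 ratio -1.92). Sp7 (osterix) was at 13.9 FPKM in the JAK2 V617F library and 32.9 FPKM in the control library, a call lost on stroma markers. Runx2, the master factor of the lineage, was within 2-fold, at 64.6 FPKM in the JAK2 V617F library and 86.3 FPKM in the control library (log2 ratio -0.41). Atf4, a stress-responsive factor that acts on osteocalcin, was the most abundant, at 116 FPKM in the JAK2 V617F library and 184 FPKM in the control library.

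Among paralogues of the 10 genes, 7 of the 14 with a row of their own were detected, 2 were lower and 2 (Ifitm1 and Ifitm2) higher. Sostdc1, the relative of Sost, was at 2.27 FPKM in the JAK2 V617F library and 10 FPKM in the control library, with a counting interval of 0.132 to 0.359 for the ratio. Ece1, a metalloprotease of the family of Phex, was at 69.0 FPKM in the JAK2 V617F library and 145 FPKM in the control library (log2 ratio -1.06), a call lost under the 4 scalings that did not use collagen. The intestinal and placental-type phosphatases Alpi and Alppl2 were listed at 0 in both libraries, and Akp3 stayed below 1 FPKM, so Alpl was the alkaline phosphatase detected.

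Markers of other cells moved between the libraries as well. The 9 mesenchymal stroma markers summed to 982 FPKM in the JAK2 V617F library and 1219 FPKM in the control library, with none past 2-fold and Cxcl12 the highest. The 8 chondrocyte markers summed to 1575 FPKM in the JAK2 V617F library and 239 FPKM in the control library, of which Prg4 made up 1234 and 20.1 FPKM. The difference was not confined to Prg4: all 8 had log2 ratios above 0, with a median of 1.28, and 6 passed 2-fold upwards. Col2a1, which held most of the control sum, stayed within 2-fold, at 238 FPKM in the JAK2 V617F library and 178 FPKM in the control library. Acan did so too (log2 ratio 0.17). Hypertrophic chondrocytes can also express Spp1 and Ibsp, and their 4 markers summed to 159 FPKM in the JAK2 V617F library and 391 FPKM in the control library. Mmp13 made up most of both sums, at 144 FPKM in the JAK2 V617F library and 378 FPKM in the control library. Col10a1 went the other way, at 9.85 FPKM in the JAK2 V617F library and 1.60 FPKM in the control library. Ihh had a value of 0 in the JAK2 V617F library and of 1.24 FPKM in the control library. Panx3 was at 5.34 FPKM in the JAK2 V617F library and 9.81 FPKM in the control library. The 8 osteoclast markers summed to 53.5 FPKM in the JAK2 V617F library and 73.3 FPKM in the control library, with Acp5 the highest and Dcstamp at 0 in both, Ocstamp at 0 in the JAK2 V617F library, and Oscar and Atp6v0d2 at 0 in the control library. The 8 macrophage markers measured summed to 31.9 FPKM in the JAK2 V617F library and 7.24 FPKM in the control library, with Cd68 the highest, C1qa at 0 in both and Cd14 at 0 in the control library. Of these macrophage markers 5 were detected, and all 5 passed 2-fold upwards (median log2 ratio 1.78). Their levels were low, with Cd68 at 13.2 FPKM in the JAK2 V617F library and 3.14 FPKM in the control library. Neutrophil markers, led by Mpo, summed to 2347 FPKM in the JAK2 V617F library and 2400 FPKM in the control library, but the members differed in both directions. The granule genes Ngp (182 and 450 FPKM in the JAK2 V617F and the control library), Camp (37.8 and 84.2 FPKM) and Ltf (9.01 and 24.1 FPKM) were 2-fold lower, 3 of the 8 markers. Mpo (663 and 577 FPKM in the JAK2 V617F and the control library), Elane (549 and 402 FPKM) and S100a9 (416 and 288 FPKM) had log2 ratios of 0.20 to 0.53. Erythroid markers, led by Hbb-b1, summed to 1297 FPKM in the JAK2 V617F library and 2549 FPKM in the control library, with 2 of 8 past 2-fold, both lower. Pan-leukocyte markers, led by Laptm5, summed to 424 FPKM in the JAK2 V617F library and 307 FPKM in the control library, and endothelial markers, led by Pecam1, to 39.4 FPKM and 33.2 FPKM. The part of these other cells in the differences of the bone mineral genes was not tested.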

How the data were processed

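The authors deposited 1 table of FPKM values for 2 libraries, each from 3 pooled animals. Per the labels' protocols, 2 to 3 ng of RNA was amplified with the Ovation RNA-Seq System v2 before library preparation, with no molecular identifiers mentioned. The submitters' processing notes name GRCm38, TopHat2 2.0.7 with Bowtie2 2.0.6, cutadapt 1.2.1 and Cufflinks. The sources used here do not give annotation release, strand setting or between-library scaling.

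The log2 ratio of JAK2 V617F over control was computed after adding 1 to each FPKM value (Python 3.11.15, numpy 2.4.6, pandas 2.3.3). Rows naming several genes (401) were left out, except from the sums over all rows, which the same-sum scaling also used. Protein-coding genes came from RefSeq GRCm38.p6 symbols and synonyms. Positions are those of the deposited loci, counted from 1. A gene counted as detected if it reached 1 FPKM in either library, and as different at 2-fold or more. With 1 library per group no test was made.

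FPKM is not a count, so depth was estimated from steps in the low values of 5569 single-transcript genes (GENCODE vM21). With an offset of 150 nt taken off each length, 1 fragment was worth 0.165 FPKM at 1 kb in the JAK2 V617F library and 0.192 in the control library, or about 6070000 and 5220000 mapped fragments. Of the low values, 84.3% and 82.6% lay within 0.2 of a whole number, after a fit that chose the step. The step finder was tested on simulated data. Exact intervals (scipy 1.17.1) were given for single-transcript genes whose ends matched within 100 bases in all, and treat amplified copies as independent.

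The 10 genes and the lists were chosen with earlier results of these data known. Named were the 10 genes, list genes past 2-fold, the 2 most abundant of each list, cluster neighbours, the 5 abundant genes with the lowest ratios, and the highest or absent cell type markers. Fam20c, Mgp and the other genes outside that rule were named after their values were seen. Some list genes are not reported here. Alternatives were other pseudocounts, filters, thresholds and scalings.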

Additional observations from a re-analysis of the deposited data

How the results depend on the processing

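No paired analysis was possible because each genotype had 1 library. Dmp1, Bglap and Ifitm5 were 2-fold lower with pseudocounts of 0.1 and 5 and under the 4 scalings not based on collagen. On those 4 scales, 5.68% to 7.48% of all genes were lower by as much. Rescaled to type I collagen, 0 of the 9 genes were 2-fold lower, 1 was 2-fold higher and their median log2 ratio was 0.03. The median of all genes on that scale was 0.87, and 2.9% of them were 2-fold lower. The median of the 9 genes (-0.89) was -0.94 with a pseudocount of 0.1, -0.74 with 5, -0.73 after scaling to the same sum, -0.80 to the median ratio, -0.78 without the 100 highest rows, -0.61 on stroma markers, -0.92 with Bglap and Bglap2 summed and -0.86 with no filter. At 1.5-fold, 6 of the 9 genes were lower. The share of all genes lower by 1.5-fold was not computed, so this count has nothing to be read against. The genes held 0.21% of the FPKM over all rows in the JAK2 V617F library and 0.369% in the control library. At 10 FPKM or more, 4.97% of all genes were 2-fold higher.

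In the bone matrix list, 2 genes were higher under each of the same-sum, median-ratio and 100-highest scalings and 3 on stroma markers. In the osteocyte list, 0 were lower with a pseudocount of 5, at the same sum and on stroma markers, and 0 higher with a pseudocount of 5. Of the transcription factors, 2 were lower on stroma markers. Of the paralogues, 1 was lower under each of the 4 scalings. These changes follow from the multiplier or pseudocount itself. The share of all genes 2-fold higher on these scales, and either share with the other pseudocounts, was not computed. Differences between animals could not be seen with 1 library per genotype.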

Other observations

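The 5 protein-coding genes with the lowest ratios at 100 FPKM or more in the control library are given as values alone, because a filter on the control library by itself favours low ratios. Tmem38b, which encodes an endoplasmic reticulum channel whose human loss causes brittle bones, was at 3.88 FPKM in the JAK2 V617F library and 320 FPKM in the control library (log2 ratio -6.04). Thumpd3 was at 52.1 FPKM in the JAK2 V617F library and 1143 FPKM in the control library, and Mark2 at 88.6 and 666 FPKM. Gm10197 was at 56.7 FPKM in the JAK2 V617F library and 387 FPKM in the control library, and Ep400 at 61.0 and 388 FPKM.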
